A study of Mus musculus with 9 samples.

Results

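The Id genes (Id1, Id2, Id3 and Id4) encode the inhibitor of DNA binding proteins, and their non-methylated islands (NMIs, intervals of genomic DNA that were enriched by capture of CpG sites without methylation) are described here. The genes were chosen by the width of the Id2 NMI, which is among the widest of the list, so that this width is a description and supports nothing. The set holds 4 of 21938 protein-coding genes of the GENCODE M21 annotation and 8 of 13491 NMIs, counting every NMI that touches a gene span or the 5 kb on either side of it. NMIs were obtained by BioCAP from C127 cells, an established mouse mammary epithelial line with no added treatment named in the labels for this library. BioCAP uses the CXXC domain of human KDM2B, fixed to a resin, to bind unmethylated CpG in sonicated genomic DNA, and the DNA released at high salt is sequenced. There was 1 BioCAP library with no replicate, and the list gives the position of each NMI without a height, score or read number, so that no error can be attached to a width and the depth is unknown. A gene without an NMI is therefore one at which none was listed, which is not a measure of its methylation, and the identity of the cells cannot be checked from positions alone. The BioCAP input, the ATAC libraries and the libraries of RNA labelled with 4-thiouridine belong to the same series and were not analysed here, and thus nothing below is a measure of expression or of open chromatin.

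ID proteins have a helix-loop-helix domain but lack the basic stretch that contacts DNA. They bind E proteins, the common partners of tissue-specific basic helix-loop-helix (bHLH) factors, and keep them off E-box sequences, which holds back differentiation and favours proliferation. Id genes are known as rapid targets of bone morphogenetic protein (BMP) signalling through SMAD factors, and in the mammary gland Id1 and Id2 have been linked to the growth and differentiation of the epithelium. At most vertebrate promoters that are rich in CpG, the CpG sites are kept free of methylation, and such regions are called CpG islands when they are predicted from the sequence alone.

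The sequences that carry the contrast between Id2, Id3 and Id4 are printed first, each 5′ to 3′ on the strand of its gene, in mm10 coordinates, with every CpG in capitals. The Id4 promoter holds the most CpG of the printed sequences and lies wholly inside the Id4 NMI. It is chr13:48260866-48261115 on the plus strand, the 250 bases before the start that RefSeq gives (RefSeq sequences, GRCm38.p6), with 35 CpG and a GC content of 75.6%.
Id4 promoter: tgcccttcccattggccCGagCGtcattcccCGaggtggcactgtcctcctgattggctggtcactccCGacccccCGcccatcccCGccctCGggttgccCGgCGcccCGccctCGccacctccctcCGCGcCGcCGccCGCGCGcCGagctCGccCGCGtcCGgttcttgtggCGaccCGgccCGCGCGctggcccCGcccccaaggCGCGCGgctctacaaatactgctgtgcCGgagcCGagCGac
The part of the Id2 promoter that lies outside the untranslated regions of every Id2 transcript is chr12:25096254-25096342 on the minus strand, 89 bases with 4 CpG. The whole RefSeq promoter window of 300 bp held 21 CpG, and the 89 bases lie in the first intron of transcript Id2-202. This part is shown because it holds the only E-box of that window, a cagctg in lower case. An E-box of any form was in 72.3% of RefSeq promoters and this form in 16.3%, so that the match describes letters only.
Id2 promoter: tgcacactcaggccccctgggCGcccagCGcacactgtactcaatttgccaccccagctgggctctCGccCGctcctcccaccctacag
The next 4 stretches follow the Id2 NMI away from the gene, and are shown because CpG content changes greatly within this single interval. Just upstream of the outermost Id2 start (chr12:25097141-25097290, minus strand) 150 bases inside the NMI held 1 CpG, with a GC content of 38%.
Id2 upstream of the outermost start: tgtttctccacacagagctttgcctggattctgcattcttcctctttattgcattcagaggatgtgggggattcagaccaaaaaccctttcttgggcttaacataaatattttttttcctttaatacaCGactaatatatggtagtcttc
The 150 bases with the most CpG upstream of that start (chr12:25098819-25098968, minus strand) held 25 CpG, with a GC content of 77.3%.
Id2 densest upstream stretch: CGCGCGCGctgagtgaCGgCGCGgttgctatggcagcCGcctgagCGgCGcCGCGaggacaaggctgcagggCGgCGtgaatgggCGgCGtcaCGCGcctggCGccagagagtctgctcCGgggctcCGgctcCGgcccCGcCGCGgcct
The last 150 bases inside the upstream edge of the NMI (chr12:25101123-25101272, minus strand) held 10 CpG, and the first 150 bases beyond it (chr12:25101273-25101422, minus strand) held 4 CpG.
Id2 inside the upstream edge: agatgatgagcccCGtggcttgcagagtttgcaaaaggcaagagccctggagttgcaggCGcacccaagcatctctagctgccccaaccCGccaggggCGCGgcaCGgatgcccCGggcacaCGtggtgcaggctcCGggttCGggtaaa
Id2 beyond the upstream edge: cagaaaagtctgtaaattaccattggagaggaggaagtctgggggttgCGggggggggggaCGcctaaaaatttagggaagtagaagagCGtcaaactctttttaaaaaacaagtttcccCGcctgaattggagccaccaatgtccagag
At Id3, the 150 bases before the outermost start (chr4:136143347-136143496, plus strand) held 2 CpG, and the densest 150 bases outside untranslated regions (chr4:136143884-136144033, plus strand), within the first exon, held 19. Both lie inside the Id3 NMI and are shown as examples. The second was picked for its CpG number, so that its lead over the first follows from the choice. The position of the first depends on the start used. The RefSeq start of Id3, chr4:136143822, lies downstream of the outermost start, and its promoter window of 300 bp held 19 CpG.
Id3 before the outermost start: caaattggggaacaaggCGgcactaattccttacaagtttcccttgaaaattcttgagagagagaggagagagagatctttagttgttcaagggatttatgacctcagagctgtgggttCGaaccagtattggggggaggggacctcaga
Id3 densest stretch: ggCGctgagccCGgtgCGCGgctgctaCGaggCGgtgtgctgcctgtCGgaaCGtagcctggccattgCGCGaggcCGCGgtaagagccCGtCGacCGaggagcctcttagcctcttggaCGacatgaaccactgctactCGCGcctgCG

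All 4 Id genes had an NMI over an annotated transcription start site (TSS), and 47.5% of protein-coding genes had one (10425 of 21938). The exact 95% interval of 4 of 4 runs from 39.8 to 100%, covers counting error only, and nothing is read from the count, since the presence of the Id2 NMI is what chose the genes. Each NMI held the starts of every annotated transcript of its gene, namely 1 distinct start for Id1, 3 for Id2, 3 for Id3 and 1 for Id4, and no start of another gene.

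The NMI at Id2 (ENSMUSG00000020644.9, minus strand, chr12:25093799-25097140) spanned chr12:25095157-25101272. It was 6116 bp wide, rank 7 of the list. The NMI just wider held starts of Tgif1 and Gm9320 (6494 bp) and the one just narrower held starts of Bahcc1 and Gm11772 (5932 bp). The Id1 NMI (chr2:152734810-152737606) was 2797 bp wide, rank 246, and the Id3 NMI (chr4:136143018-136145673) was 2656 bp wide, rank 299, so that 98.2% and 97.8% of NMIs in the list were narrower. The Id4 NMI (chr13:48260699-48262075) was 1377 bp wide, rank 3472, with 74.2% of NMIs narrower. For comparison, the median was 990 bp over the whole list (quartiles 572.5 and 1394 bp) and 1173 bp over the 9581 NMIs that hold a protein-coding start. Id2 was therefore widest and Id4 narrowest of the 4, whereas Id1 and Id3 were close, and a single list gives no spread by which their order could be judged.

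The NMIs differed in how much of each gene they covered. Id1 (ENSMUSG00000042745.9, plus strand, chr2:152736251-152737410) is 1160 bp long and was covered over 100% of its span, both exons and the intron of transcript Id1-201 included. Id3 (ENSMUSG00000007872.3, plus strand, chr4:136143497-136145755) is 2259 bp long and was covered over 96.4%, with all 3 exons and both introns of transcript Id3-201 inside the NMI. Coverage this complete was found at 84 of 10425 protein-coding genes with an NMI (0.806%, at least 90% of the span), and at 83 of the 1065 that are at most 5 kb long (7.79%), where the median coverage was 25.6%. Id1 and Id3 are both short, and only the second share compares them with genes of like length.

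At Id2, 59.4% of the span was covered. The NMI took in the first exon (430 bp) and second exon (64 bp) of transcript Id2-201, which hold the whole coding sequence of that transcript. It also took in the upstream first exon of transcript Id2-202 (536 bp). It ended 154 bp into the last intron, and the last exon, 776 bp of 3′ untranslated region in Id2-201, lay outside. Id4 (ENSMUSG00000021379.2, plus strand, chr13:48261228-48266026) showed the lowest coverage, 17.7% of 4799 bp. Its first exon (711 bp) was covered entirely, the NMI ended 137 bp into the first intron, and the second exon (63 bp) and the third (3075 bp, untranslated) were outside. Taken over all transcripts of a gene, the coding sequence was covered over 100% at Id1, Id2 and Id3. At Id4 it was covered over 91.3% (441 of 483 bp), because 42 coding bases lie in the second exon of Id4.

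**Figure D1:**
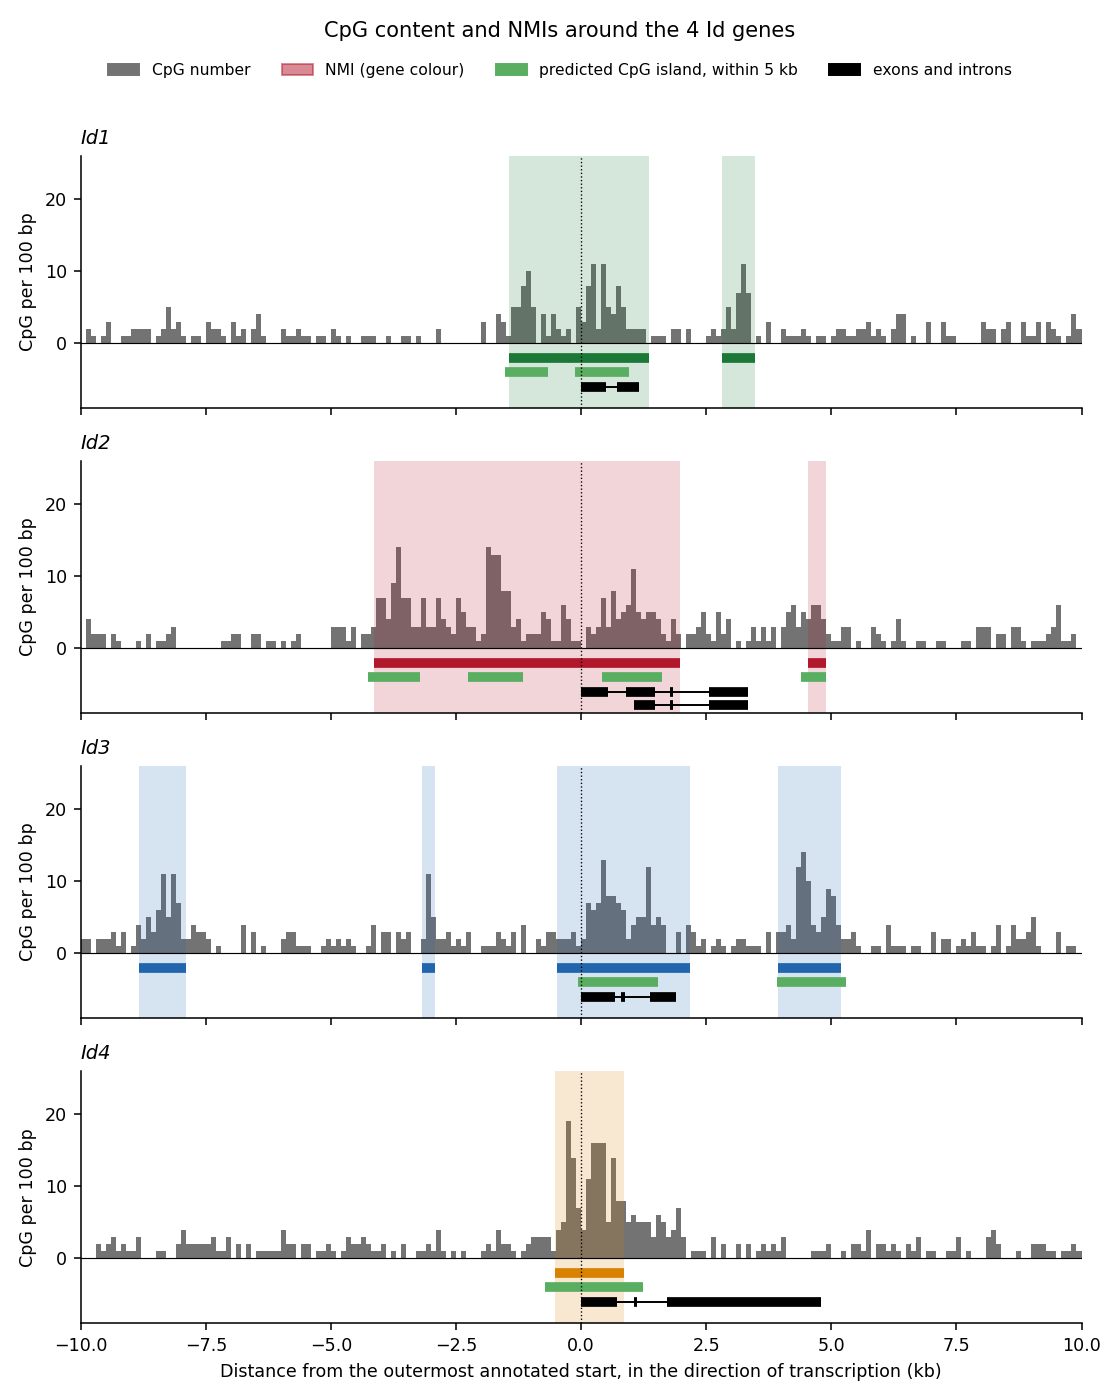
CpG per 100 bp (grey bars, vertical axis) against the distance from the outermost annotated start of each Id gene (horizontal axis, kb, in the direction of transcription), with NMIs as coloured shading and bars, CpG islands predicted by the criteria of Takai and Jones within 5 kb of the gene in green and exons and introns in black. The Id2 NMI runs 4132 bp upstream of the start, and over its whole width it touches 3 separate islands. The Id1 NMI runs over 2, and the Id4 NMI lies inside a single island of 1960 bp.

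The same difference was seen when NMIs were split at the outermost start inside them. At Id2, 4132 bp lay upstream and 1983 bp downstream, so that 67.6% of the NMI lay outside the gene on its promoter side. This was the fifth longest upstream extent of 10425 genes, after Tnrc18 (6420 bp), Gata3 (5960 bp), Setd1b (4740 bp) and 4930412O13Rik (4625 bp, in the Gata3 NMI), and of these only the NMIs of Tnrc18 and Id2 held no start of another gene. Measured from the start of Id2-201, which makes the shorter first exon, 5180 bp lay upstream. Since the gene was chosen for the width of this interval, the extent is a description. Id1 had 1441 bp upstream (rank 252) and 1355 bp downstream (rank 1040), close to an even division. Id3 had 479 bp upstream (rank 4022) and 2176 bp downstream (rank 184), the reverse of Id2. Id4 had 529 bp upstream and 847 bp downstream (ranks 3527 and 4086). The medians over all genes with an NMI were 389 bp upstream (quartiles 249 and 636 bp) and 748 bp downstream (quartiles 542 and 1015 bp).

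**Figure D2:**
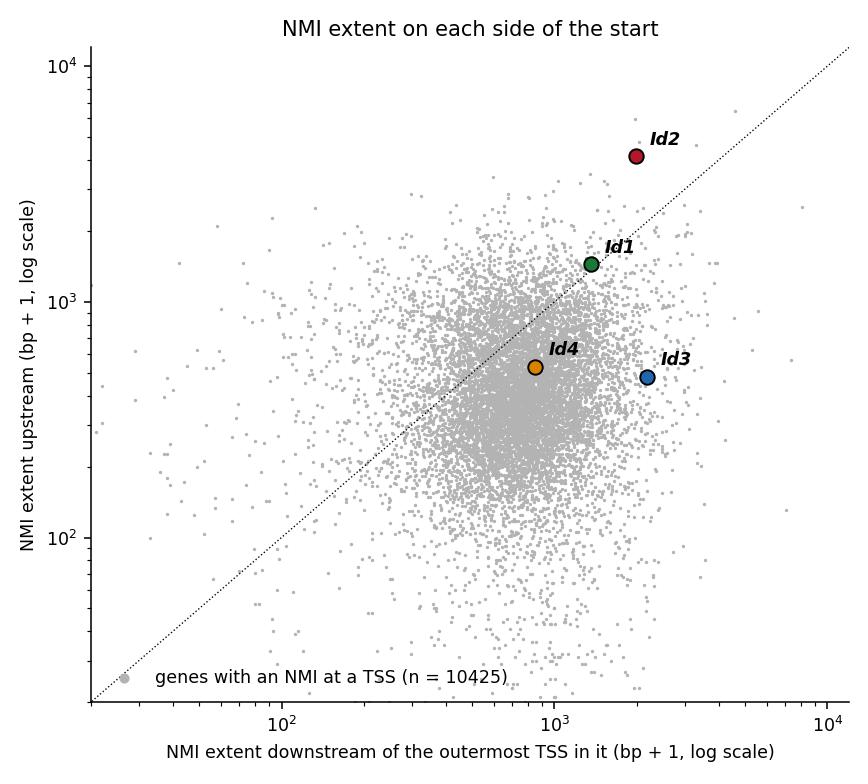
Base pairs of NMI upstream (vertical axis) against downstream (horizontal axis) of the outermost start in it, both plus 1 on log scales, for 10333 of 10425 protein-coding genes (grey points, those at 20 or more on both axes) and the 4 Id genes (coloured), with a dotted line of equal extents. Id2 lies far above the line at 4132 bp upstream and 1983 bp downstream, Id1 lies on it, and Id3 and Id4 lie below.

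CpG content separated Id4 from the other 3. The Id4 NMI held 10.5 CpG per 100 bp, more than 93.9% of NMIs with a protein-coding start, with a GC content of 66.4% and an observed to expected CpG ratio of 0.954 (observed CpG number over that expected from the C and G content). Id1 (4.22), Id3 (4.56) and Id2 (4.79) were well under the median of 6.89 CpG per 100 bp, and only 5.76%, 8.73% and 11.4% of such NMIs were less dense. Their observed to expected ratios were 0.593, 0.622 and 0.666, against a median of 0.762, and their GC contents were 53.4%, 54.1% and 53.6%, against a median of 60.8%. In the number of CpG sites, which grows with width, Id2 came first with 293, ahead of Id4 with 144, Id3 with 121 and Id1 with 118, and the median was 81. Thus Id4, the narrowest of the 4, held more CpG sites than Id1 or Id3.

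The density of wide NMIs in general was close to that of all. Among the 377 NMIs of 2500 bp or more with a protein-coding start, a limit taken after the widths had been seen, the median was 6.83 CpG per 100 bp (quartiles 5.71 and 8.04). Of these wide NMIs, 2.39% were less dense than that of Id1, 5.57% less dense than that of Id3 and 7.96% less dense than that of Id2. These are positions within 1 list and carry no test.

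**Figure D3:**
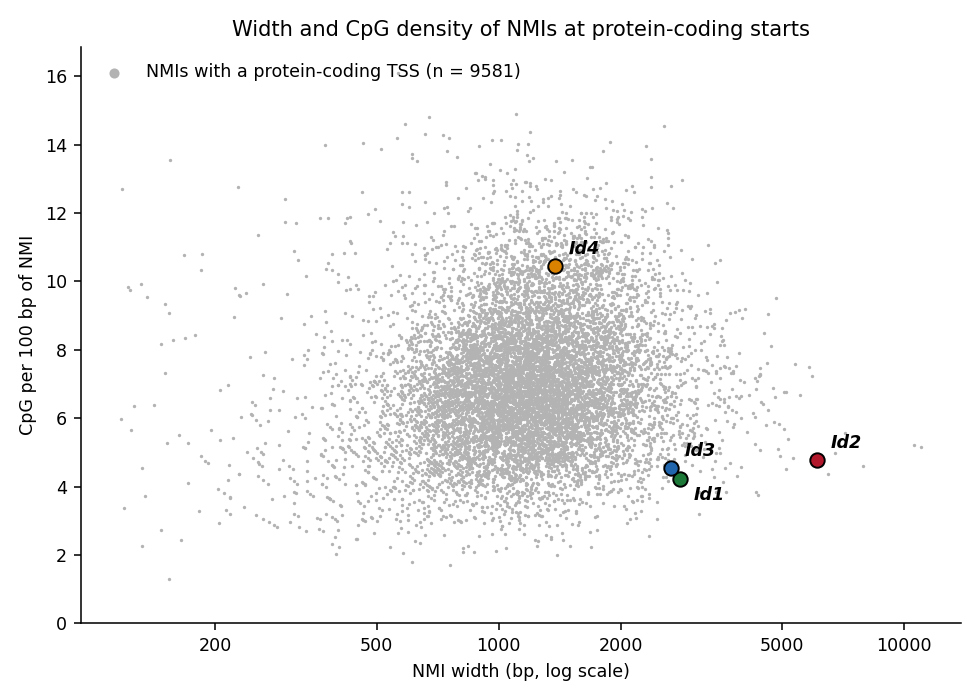
CpG per 100 bp (vertical axis) against NMI width (horizontal axis, bp, log scale) for the 9581 NMIs with a protein-coding start (grey points) and those of the Id genes (coloured). Id1, Id2 and Id3 sit at the lower right, with 4.22 to 4.79 CpG per 100 bp, and Id4 at 1377 bp and 10.5 CpG per 100 bp near the upper edge of the main cloud.

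Inside the NMIs, CpG sites were unevenly placed. In consecutive 1 kb segments of the Id2 NMI, counted from its edge inside the gene, there were 46, 40, 29, 68, 38 and 65 CpG sites, with a last piece of 116 bp that held 7. The first 2 segments lie almost wholly over the gene, and the rest lie upstream of every annotated Id2 start. The part upstream of the outermost start held 207 CpG (5.01 per 100 bp) and the part downstream held 86 (4.33 per 100 bp). Id3 showed the opposite, with 2.09 CpG per 100 bp upstream and 5.10 downstream. Id1 had 3.68 upstream and 4.79 downstream, and Id4 had 9.45 and 11.1.

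Beyond the NMI edges the density fell at each gene. In the 2 kb upstream flanks it was 0.75 CpG per 100 bp at Id1, 1.15 at Id2, 1.55 at Id3 and 1.45 at Id4. In the downstream flanks it was 2.30, 1.95, 1.60 and 3.45 in the same order. Those of Id1 and Id3 take in part of a separate NMI downstream of the gene, so that they are not wholly outside NMIs. The Id4 value was the highest, and its flank had an observed to expected ratio of 0.610. In windows of 20 kb around the outermost start, NMIs took up 32.3% of the bases and 62.2% of the CpG sites at Id2, 25.6% and 56.2% at Id3, 17.3% and 45.0% at Id1, and 6.89% and 34.4% at Id4.

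Predicted CpG islands (runs of windows of 500 bp with at least 55% GC and an observed to expected ratio of at least 0.65, the criteria of Takai and Jones) were matched to these NMIs. The Id2 NMI touched 3 of them, a number that depends on the criteria, since it touched 8 with the looser ones of Gardiner-Garden and Frommer (windows of 200 bp, 50% GC and a ratio of 0.6), which made up 74.9% of it. By the stricter criteria, one of 1195 bp holds starts of Id2 (chr12:25095535-25096729) and was covered entirely, one of 1085 bp lies upstream (chr12:25098311-25099395) and was also covered entirely, and one of 1040 bp lies farther upstream (chr12:25100369-25101408) and was covered over 86.9%. The islands made up 52.1% of the NMI, with 6.31 CpG per 100 bp, and the stretches between and beside them made up the remaining 2932 bp, with 3.14. The longest such stretch, 1581 bp, parts of which are islands by the looser criteria, takes in most of the first exon of Id2-202 and the sequence upstream of it, where the printed 150 bases hold 1 CpG. Of NMIs with a protein-coding start, 20 of 9581 (0.209%) touched 3 or more predicted islands and 224 (2.34%) touched 2 or more, a number that depends on width.

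The Id1 NMI touched 2 islands, one of 1084 bp at the start (100% covered) and one of 856 bp upstream (90.3% covered), which made up 66.4% of it. The CpG density outside them was 1.91 per 100 bp. The Id3 NMI held 1 island of 1610 bp, 60.6% of its width, with 2.01 CpG per 100 bp outside it. At Id4 the relation was turned round. The NMI lay wholly inside an island of 1960 bp and covered 70.3% of that island, whose uncovered part extends on both sides of the NMI. Across the 9581 NMIs the median share inside predicted islands was 94.6%, and 38.1% lay wholly inside, as did that of Id4, whereas those of Id1, Id2 and Id3 reached well past the islands.

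The other 4 NMIs near Id genes held no annotated start. Downstream of Id2 an NMI of 345 bp (chr12:25092255-25092599) lay 1199 bp beyond the gene end, with 5.51 CpG per 100 bp, in an island of 519 bp of which it covered 66.5%. Its densest 150 bases (chr12:25092307-25092456, strand of Id2) held 10 CpG and are shown as an example of captured sequence away from any start.
NMI downstream of Id2: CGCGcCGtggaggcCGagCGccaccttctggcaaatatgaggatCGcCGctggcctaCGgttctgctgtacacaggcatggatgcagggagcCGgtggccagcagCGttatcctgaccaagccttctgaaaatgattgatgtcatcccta
Downstream of Id1 an NMI of 660 bp lay 1647 bp beyond the gene end (chr2:152739058-152739717, 5.15 CpG per 100 bp). Id3 had one on each side, of 265 bp lying 2921 bp upstream (chr4:136140311-136140575, 6.42 CpG per 100 bp) and of 1265 bp lying 1675 bp downstream (chr4:136147431-136148695, 6.40 CpG per 100 bp). The latter covered 91.1% of an island of 1389 bp that holds no annotated start. These 4 intervals were each denser in CpG than the NMI over the start of the nearest Id gene. A further NMI of 935 bp lay 7898 bp upstream of Id3, and within 5 kb of Id4 only the NMI at its start was listed.

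The neighbouring genes and NMIs lay at varied distances. In this paragraph, distances to genes are counted from the Id gene, and distances to NMIs from the edge of the NMI at its start. Toward higher coordinates from Id2 the next NMI was 164 bp wide and 682174 bp away, and the nearest protein-coding gene, Rnf144a, had no NMI. On the other side Kidins220, which encodes a neurotrophin receptor scaffold, lay 30646 bp away with an NMI of 1053 bp. Near Id1, H13, which encodes a signal peptide peptidase, had an NMI of 1310 bp and Cox4i2, a respiratory chain subunit gene, had none. Id3 lies between Rpl11, a ribosomal protein gene (1268 bp), and E2f2, a cell cycle transcription factor gene (1543 bp). Around Id4 the nearest protein-coding genes were Rnf144b, without an NMI, and Zfp169 (620 bp), and the nearest NMIs were one of 333 bp at the start of the non-coding gene A330048O09Rik, 11499 bp away, and one of 535 bp, 32458 bp away on the other side. The annotated starts of the antisense transcript A330033J07Rik and of Gm49291 lie 548 and 516 bp past the downstream edge of the Id4 NMI, so that no NMI held them.

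The genes whose NMI geometry was most like that of Id2 were sought among 10424 other protein-coding genes with an NMI. The 4 measures were NMI width and gene length, both on log scales, share of the gene covered and CpG density, each scaled to its SD. The nearest was Myc (distance 0.591), a growth transcription factor gene with an NMI of 5180 bp over 61.2% of its span. Then came Tgif1, a homeobox corepressor of TGF-beta signalling (0.866, 6494 bp), Ccn1, a secreted matrix protein gene (0.917, 4360 bp), Sox9, a developmental transcription factor gene (0.995, 4574 bp), and Marcks, a protein kinase C substrate gene (1.16, 5541 bp). The other Id genes came later in this order, with Id3 at rank 196, Id1 at rank 289 and Id4 at rank 2383 of 10424.

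Promoter windows of 300 bp (250 bases before to 50 after the RefSeq start) were found for 3 of the 4 Id genes, Id2, Id3 and Id4, and each window lay entirely inside its NMI. They held 21, 19 and 39 CpG, and 75.2%, 71.9% and 95.6% of 32841 RefSeq promoters held fewer. Letters of known motifs were counted on both strands. CCAAT was found 3 times at Id2, 0 times at Id3 and 2 times at Id4, and in 37.4% of all promoters. The GC box GGGCGG was found 1, 2 and 5 times in the same order (35.7% of promoters), and the Id3 pair overlaps. The E-box CANNTG was found once at Id2, as CAGCTG, and was not in the Id3 and Id4 windows (72.3% of promoters). GGCGCC, the core of a BMP-responsive element, was found once at Id2, once at Id4 and not at Id3 (11.9%). The SMAD box GTCT was found once at Id2, 3 times at Id3 and not at Id4 (88.0%). TATAAA (13.6%), the E-box form CACCTG (20.2%) and the full cyclic AMP response element TGACGTCA (1.79%) were in none of the 3 windows. These matches describe letters only.

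Partners and regulators of ID proteins were then compared with the Id genes, from lists of 85 genes in all, of which 35 had an NMI at a start (41.2%, exact 95% interval 30.6 to 52.4%). The share over all protein-coding genes, 47.5%, lies inside this interval and is the background for each list below. Their median NMI width was 1647 bp, beside 1210 bp for all protein-coding genes with an NMI. No list gene had a wider NMI than Id2, 4 had a wider one than Id1 and 26 had a wider one than Id4. The lists carry no test.

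The E proteins, which ID proteins bind directly, had an NMI at 3 of 3 genes, with widths of 1880 bp at Tcf12, 1559 bp at Tcf3 and 1221 bp at Tcf4. Tcf4 has 58 annotated starts and its NMI is not at the outermost, so that the share was 66.7% when only the outermost start of each gene counted. The pocket protein genes, whose products restrain the cell cycle and which ID2 is known to bind, had one at 3 of 3 genes, with 1874 bp at Rb1, 1485 bp at Rbl1 and 1148 bp at Rbl2. Genes that set ID protein stability had one in 4 of 4, namely Usp1, a deubiquitinase (2012 bp), the ubiquitin ligase gene Huwe1 (1541 bp), and the activators of the anaphase-promoting complex Fzr1 (1317 bp) and Cdc20 (803 bp), and the share was 75% at the outermost start, where Huwe1 had none. Each of these 10 genes had a narrower NMI than Id1, Id2 and Id3, and 6 of them had a wider one than Id4.

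The tissue-specific class II bHLH genes, whose products pair with E proteins, mostly had no NMI. Only 3 of 32 had one (9.38%, exact 95% interval 1.98 to 25.0%), namely Twist2 (1981 bp), Twist1 (1528 bp) and Scx (1474 bp). Ascl2, Atoh1 and Bhlha15 were among the 29 without. CpG density within 500 bp of the outermost start had a median of 4.90 per 100 bp in these 29, beside 1.40 in the 11513 protein-coding genes without an NMI and 6.49 in the 10425 with one. In 7 of the 29 it was above 6.49. By the same measure Id1 and Id3 both had 4.50 and Id2 had 2.80, and all 3 had an NMI, while Id4 had 11.2. These densities depend on the start chosen. The outermost start of Id2 lies in a CpG-poor stretch, and the windows at the RefSeq starts of Id2 and Id3 held 21 and 19 CpG in 300 bp.

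Of the Hes and Hey genes, bHLH repressors that act in Notch signalling and some of which ID proteins bind, 4 of 10 had an NMI. That of Hes1, a short gene, was 4795 bp wide and covered 93.8% of the span, beside 100% at Id1 and 96.4% at Id3. Helt (2253 bp), Hes6 (1353 bp) and Hey1 (1184 bp) followed, and Hes2, Hes3, Hes5 and Hes7 were among those without. Among ETS and Pax factor genes, Elk3 (1783 bp), Pax2 (1647 bp) and Elk4 (1573 bp) had an NMI, and Elk1, Pax5 and Pax8 had none.

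BMP pathway genes were taken by role. Of the ligand genes 1 of 8 had an NMI, Bmp4 (2779 bp, not at its outermost start), and Bmp10, Bmp2, Bmp5 and Bmp6 were among those without. Of the receptor genes 5 of 8 had one, with Bmpr2 (2667 bp), Bmpr1a (2091 bp), Acvr1 (2009 bp) and Acvr2a (1780 bp) the widest and Acvr2b (780 bp) the narrowest, and Acvrl1, Bmpr1b and Eng, of which Acvrl1 and Eng are known from endothelium, had none. All 6 SMAD genes had one. The widest were those of the inhibitory SMADs Smad7 (5049 bp) and Smad6 (3578 bp), and Smad1 (1831 bp) and Smad4 (1576 bp) came next. The cyclin-dependent kinase inhibitor genes Cdkn1b (2840 bp), Cdkn1a (2397 bp) and Cdkn2b (1066 bp) had an NMI, 3 of 5 in all and 40% at the outermost start, where Cdkn1a had none. Cdkn1c and Cdkn2a had none, although their densities of 10.6 and 10.8 CpG per 100 bp around the start were close to that of Id4. Differences between these lists were not tested.

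**Figure D4:**
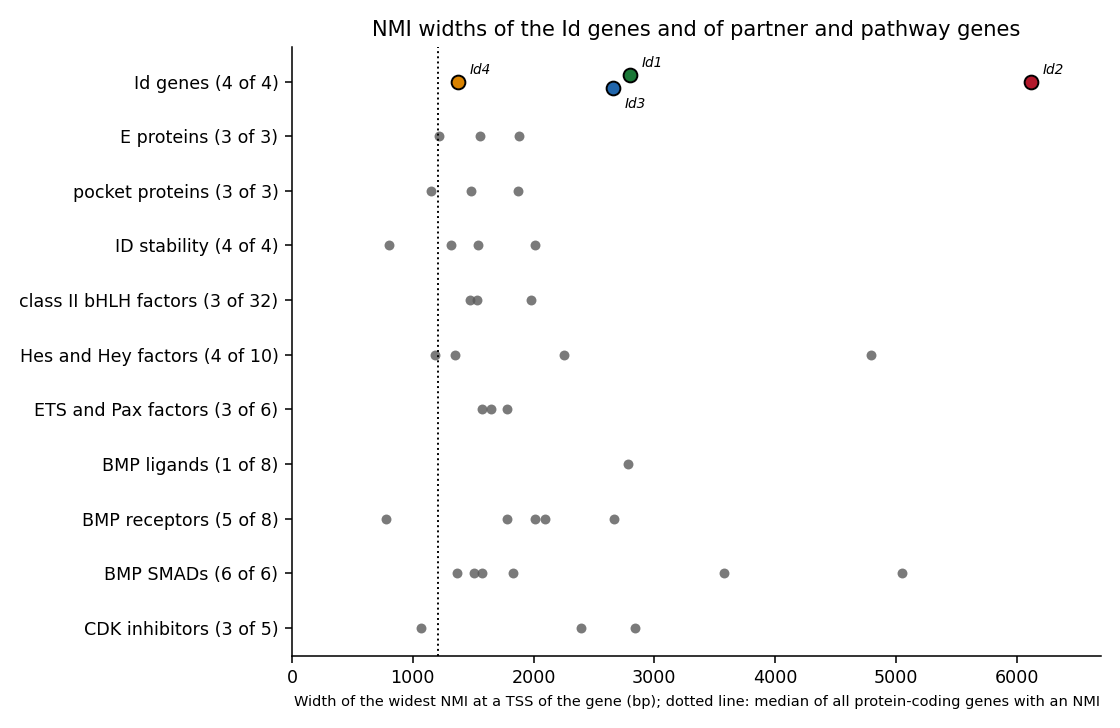
Width of the widest NMI at a start of each gene (horizontal axis, bp) for the 4 Id genes (coloured) and for partner and pathway lists (grey, 1 point for each gene with an NMI, with the number of genes with an NMI of the number listed beside each name), with a dotted line at the median of 1210 bp. The Id2 point at 6116 bp lies beyond every list gene, and the nearest are Smad7 (5049 bp) and Hes1 (4795 bp).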

How the data were processed

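The authors mapped BioCAP reads with Bowtie2 against mm10. Reads with several positions were dropped by them, PCR duplicates were taken out with SAMtools, and MACS at a false discovery rate of 0.01 gave the NMIs. For the versions, the control used and any joining of neighbouring peaks, the sources used here give nothing. The deposited list holds chromosome, start and end only, printed here counted from 1. No pair of NMIs of the list lies closer than 464 bp, and 211 of 13469 gaps between neighbours are 1000 bp or less.

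Starts, exons and gene spans were taken from GENCODE M21 on GRCm38 (the same coordinates as mm10), sequence from the RefSeq genome GRCm38.p6, and promoters from a RefSeq table of the same build, in which 3 of the 4 Id genes matched by symbol. An NMI counted as at a gene when at least 1 bp of it lay on the start of any transcript, and the widest was used. CpG islands were runs of overlapping windows that each met the criteria, so that a whole run can fall slightly under them. Repeats are the lower-case bases of the genome. Intervals of shares are exact (Clopper-Pearson, 95%). Scripts used Python 3.11.15, numpy 2.4.6, scipy 1.17.1, pysam 0.24.0 and samtools 1.23.1, and were tested on simulated intervals and sequences with known answers.

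Members, lists and measures were chosen with earlier results of these data known. All genes of the lists of E proteins, pocket proteins and ID stability are named, and every other list gives at most 4 genes with an NMI, by width, and at most 4 lacking one, by alphabet, or all of a group of no more than 5. An item that this rule takes in is not reported here. With 1 library no test between groups was made. Alternatives were other distances to the start, the outermost start, protein-coding transcripts, NMIs of 500 bp or more, flanks of 2 and 10 kb, NMIs merged across 250 and 1000 bp, and other island criteria. The width limit of 2500 bp, the number of islands per NMI and the CpG density around starts were added after the data had been seen. Protein sequences were not analysed here.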

Additional observations from a re-analysis of the deposited data

How the results depend on the processing

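The rank of the Id2 NMI went from 7 to 12 when NMIs within 1000 bp of one another were merged. Other NMIs were joined by this and the Id2 NMI was not. The rank was 7 when only NMIs with a protein-coding start were ranked. It was also 7 when the gap was 250 bp, a setting that could join nothing, since no pair of NMIs lies closer than 464 bp. Counting only the outermost start lowered the shares of listed genes, from 12.5 to 0% for BMP ligands (Bmp4 lost), from 100 to 66.7% for E proteins (Tcf4), from 100 to 75% for ID stability genes (Huwe1), from 60 to 40% for CDK inhibitors (Cdkn1a) and from 41.2 to 36.5% over all lists. The number of NMIs near Id genes was 8, and it was 7 with flanks of 2 kb, 10 with flanks of 10 kb and 6 without NMIs under 500 bp. All 4 Id genes had an NMI at a start under each of the 5 alternatives run for that count, but none of these could have lowered it. Every annotated start of the 4 genes lies inside an NMI of at least 1377 bp, so that these settings are no check of the count. With the criteria of Gardiner-Garden and Frommer the island at the start was covered over 71.1% at Id4 and over 100% at the other 3, and the number of islands touched by the Id2 NMI went from 3 to 8, an alternative chosen after seeing the data, while it was 2 at Id1, 1 at Id3 and 1 at Id4 under both criteria. The list gives no depth and no score, so the effect of a stricter peak threshold could not be computed, and with 1 library no replicate could be left out.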
